A study of Mus musculus with 6 samples.

Results

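The genes described here make up the core of the MHC class I pathway and the immunoproteasome in mouse LT-HSCs (long-term hematopoietic stem cells), rare bone marrow cells that renew themselves and supply every blood lineage. The 10 members were taken by gene symbol from the deposited counts: the heavy chains H2-K1 and H2-D1, the light chain B2m, the peptide transporter and loading genes Tap1, Tap2 and Tapbp, the inducible proteasome subunits Psmb8, Psmb9 and Psmb10, and the transcriptional regulator Nlrc5. Each symbol matched 1 row, so 10 of 47561 rows were members, and all 10 were among the 16022 rows that passed the filter on low counts. LT-HSCs had been sorted from bone marrow of Piezo1 knockout (KO) mice and of control mice, with 3 RNA-seq libraries per group. The titles of all 3 KO libraries name Piezo1, the gene of a mechanically opened cation channel. The genotype field reads Piezo1 knockout for KO replicate 1, Piezo2 knockout for replicate 2 and Piezo3 knockout for replicate 3, and WT for every control library, and the groups follow the titles. Neither a Cre driver, an age nor a number of mice is named in the labels, so p-values measure the spread between these libraries, which may be technical.

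MHC class I molecules show short peptides from the inside of a cell to CD8 T cells and natural killer cells. Proteasomes cut proteins into peptides, the Tap1/Tap2 transporter moves these into the endoplasmic reticulum, tapasin (Tapbp) helps load them onto a heavy chain paired with beta-2 microglobulin, and the complex travels to the surface. Interferons and the transactivator Nlrc5 raise transcription of these genes, and the same signals swap the constitutive catalytic proteasome subunits for inducible ones, which makes the immunoproteasome. Blood stem cells are known to carry class I molecules on their surface.

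Most members lie together in the MHC region of chromosome 17 (RefSeq GRCm38.p6, matched by symbol, since the count tables hold no coordinates). Psmb9 (chr17:34182030-34187330, minus strand), Tap1 (chr17:34187556-34197225, plus strand), Psmb8 (chr17:34198195-34201454, plus strand) and Tap2 (chr17:34204479-34216321, plus strand) follow each other, with Tapbp (chr17:33919478-33929290, plus strand) and H2-K1 (chr17:33996012-34000619, minus strand) to one side and H2-D1 (chr17:35263094-35267497, plus strand) to the other. B2m lies at chr2:122147687-122153082 on the plus strand. Psmb10 (chr8:105935728-105938392, minus strand) and Nlrc5 (chr8:94434335-94527272, plus strand) are on chromosome 8.

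Promoter stretches of H2-K1, H2-D1 and B2m are shown because these 3 genes make the class I complex itself. Letters of elements through which interferon, NF-kB and Nlrc5 are known to act were searched for, and not all were found in each gene. The RefSeq table held a window of 250 bases before the start for 8 members, all but Tap2 and Nlrc5. For H2-K1 it held starts at chr17:34000347 and chr17:34000333, and the stretches were taken before the former. Both starts lie inside the H2-K1 interval given above, which ends at 34000619, and so do the H2-K1 stretches shown here. Both strands were searched. Capitals in the first set mark 3 motifs. The kB motif is GGG, any 2 bases and TTCCC. The site for interferon regulatory factors (IRF) is AANNGAAA, read on the opposite strand in H2-K1 and H2-D1. The interferon-stimulated response element (ISRE) motif is GAAA, any 2 bases and GAAA, which overlaps the IRF site in B2m. The stretches, from RefSeq GRCm38.p6, lie at chr17:34000429-34000458 (minus strand) for H2-K1, chr17:35262923-35262952 (plus strand) for H2-D1 and chr2:122147538-122147567 (plus strand) for B2m.
H2-K1: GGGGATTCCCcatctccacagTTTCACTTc
H2-D1: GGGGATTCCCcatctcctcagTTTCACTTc
B2m: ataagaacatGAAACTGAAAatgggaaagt
Counted from 1 at the 5′ end of the 30-base stretch, H2-K1 and H2-D1 differed by the single substitution A18T. The kB letters were in 1.53% of all 32851 windows, the IRF letters, which were added to the search after the sequences had been seen, in 21.3%, and the ISRE letters in 2.98%. Among the 8 members with a window, the kB letters stood in H2-K1 and H2-D1 and the ISRE letters in B2m. The interferon-gamma activated letters TTCNNNGAA stood in Psmb8, and in 7.02% of all windows.

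In the second set, capitals mark TGACG of the X2 (CRE-like) type and ATTGG, the reverse complement of the Y box letters CCAAT, both parts of the module to which Nlrc5 is known to be recruited through RFX, CREB/ATF and NF-Y factors. The stretches lie at chr17:34000359-34000388 (minus strand) for H2-K1, chr17:35262993-35263022 (plus strand) for H2-D1 and chr2:122147609-122147638 (plus strand) for B2m.
H2-K1: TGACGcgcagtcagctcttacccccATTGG
H2-D1: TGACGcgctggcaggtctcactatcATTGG
B2m: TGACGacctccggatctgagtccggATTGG
All 3 genes had 20 bases between the capitals, although the bases in between differed. This spaced pair was put together after the sequences had been seen. It was found in 30 of 32851 windows (0.0913%), in 3 of the 8 members with a window, and in 1 of 14 other class I heavy chain genes with a window (H2-M3). Alone, TGACG was in 17.8% and CCAAT in 33.8% of windows. Tap1 and Psmb9, whose RefSeq starts are 225 bases apart on opposite strands, share their upstream DNA and held both elements at a wider spacing. There CCAAT and TGACG stand on the same strand, whereas the spaced pair has them on opposite strands, so the arrangement differs too. Both are shown from the Tap1 strand, for chr17:34187322-34187351 with CCAAT and chr17:34187458-34187487 with TGACG.
Tap1, Y box: gggctcggctttCCAATcagcggctgcgcg
Tap1, X2: cccagagacaggTGACGacagagggtcctg
These matches describe letters and were not tested for binding of any factor.

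Total counts lay between 59435258 and 64653956 per library, and the lowest count of any member was 1153 (Tap2 in control replicate 1). Piezo1 itself had 4.28, 7.99 and 9.46 CPM (counts divided by the library total after TMM adjustment) in KO and 17.0, 7.02 and 24.3 CPM in control libraries, so the groups overlapped. The 15 genes listed for LT-HSCs, which include Cd34, Flt3 and Cd48, summed to between 1037 and 1281 CPM in KO and between 1072 and 1589 CPM in control libraries. This sum holds genes that moved in opposite directions. Ly6a had 89.2, 206 and 72.8 CPM in KO and 324, 373 and 284 CPM in control libraries. Kit had 323, 293 and 344 CPM in KO and 106, 223 and 226 CPM in control libraries. The sum therefore does not show that the groups were alike in LT-HSC markers. Neutrophil and precursor markers summed to 12401 CPM in control replicate 3 and to at most 1176 CPM in every other library. Erythroid markers summed to between 7271 and 24872 CPM in KO against between 526 and 4214 CPM in control, and megakaryocyte and platelet markers to between 1727 and 2557 CPM in KO against between 804 and 1082 CPM in control. The groups overlapped in neither the erythroid nor the megakaryocyte sum, and the part of these cells in the class I results was not tested. T and NK cell markers summed to between 255 and 270 CPM in KO against between 153 and 225 CPM in control libraries, also with no overlap. Nkg7 made up most of this sum, while Cd8a, Gzma and Ncr1 were at 0 in all 6 libraries. Dendritic cell and macrophage markers summed to between 550 and 693 CPM in KO and between 605 and 654 CPM in control libraries. Cst3 made up most of that sum and C1qa, C1qb and C1qc were detected in every library, while Itgax, Siglech and Xcr1 were at 0 throughout. B cell markers summed to between 36.0 and 45.8 CPM in KO and between 36.7 and 89.8 CPM in control libraries. The part of these cells in the class I results was not tested either.

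The fitted level of H2-K1 in KO libraries was 0.643 of that in control libraries and that of Psmb8 was 0.693, while the transporter and regulator genes did not share that direction. In KO, 7 of 10 members had a negative log2 fold change against control, with a median of -0.38, where the median over all 16022 tested genes was 0.03. At an unadjusted p under 0.05 in edgeR's quasi-likelihood test, 4 members were lower (H2-K1, Psmb8, Psmb10 and Tapbp) and 0 were higher. Across all tested genes 5.59% were lower and 5.44% higher by that measure. KO libraries lay entirely below control libraries in 5 members, the same 4 and Psmb9, where this held for 8.76% of all tested genes, and above them in 0 members, where 10.7% of all tested genes did. No member and no other gene passed an edgeR adjusted p of 0.05 (0.00% of tested genes). DESeq2 called H2-K1 and Psmb8 lower, with adjusted p-values of 0.0179 and 0.00873, among 3.59% of 9173 genes called lower, and 0 members were among the 2.09% called higher. In bulk RNA, fewer cells of a type and less RNA per cell cannot be told apart.

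**Figure D1:**
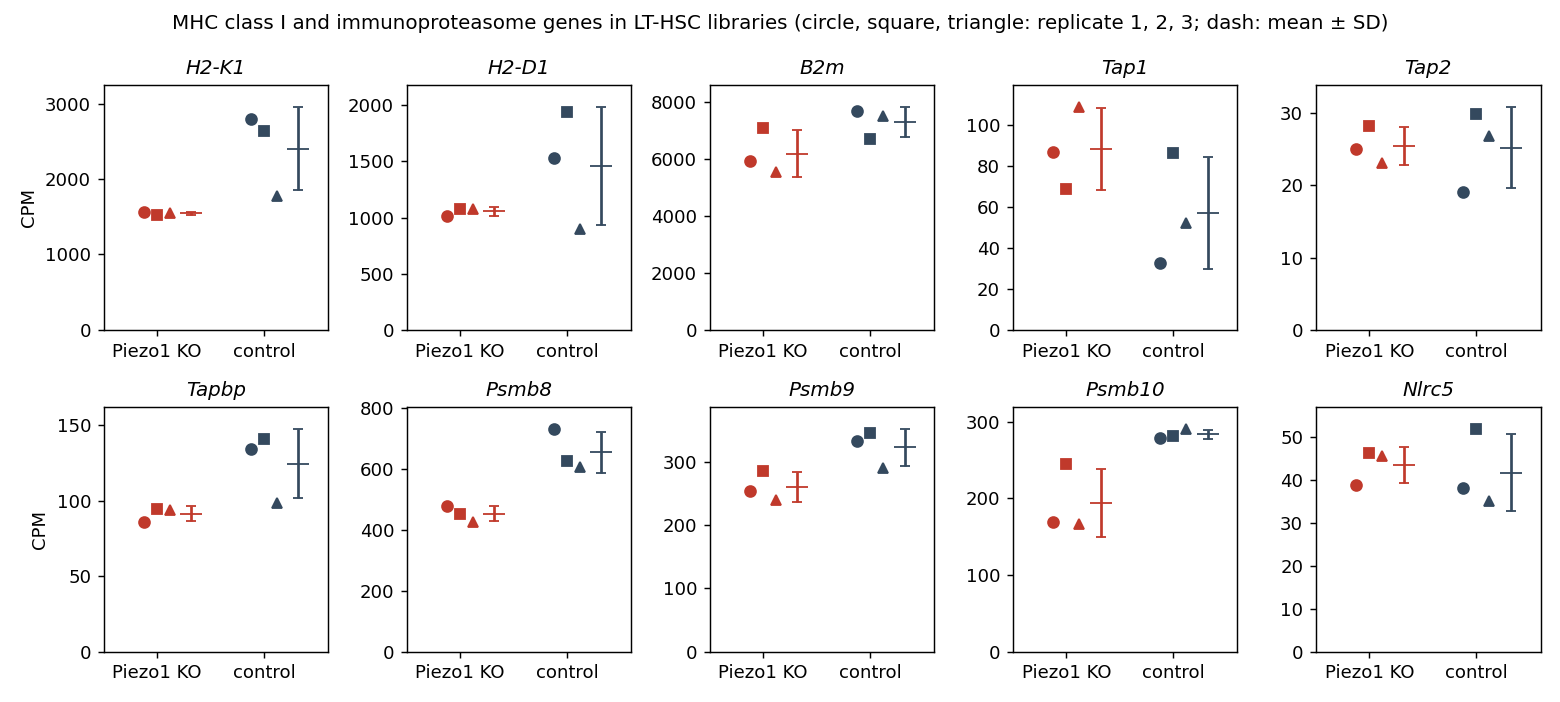
CPM of each member (y axis, linear, from 0) in the 3 Piezo1 KO and 3 control libraries, with symbols for replicates and a dash with bars for mean ± SD. KO libraries lie below all control libraries for H2-K1, Tapbp, Psmb8, Psmb9 and Psmb10, and the groups overlap for the other 5 members.

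The classical heavy chain gene H2-K1 had 1561, 1528 and 1550 CPM in KO replicates 1 to 3, against 2797, 2638 and 1778 CPM in control replicates 1 to 3. The KO libraries lay within a narrow band, and control replicate 3 came closest to it. KO libraries averaged 1546 ± 17.1 CPM and control libraries 2404 ± 548 CPM (SD, n = 3 each), with a log2 fold change of -0.64 (SE 0.19) and an edgeR unadjusted p = 0.0114, adjusted p = 0.317. The difference kept an unadjusted p under 0.05 with any 1 library left out (highest 0.0426).

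H2-D1, the other classical heavy chain gene, had 1011, 1076 and 1075 CPM in KO and 1531, 1941 and 897 CPM in control libraries. Control replicate 3 lay below every KO library, so the groups overlapped. Its log2 fold change was -0.47 (SE 0.27), with an edgeR unadjusted p = 0.124, adjusted p = 0.580. Without control replicate 3, the library with the highest neutrophil marker sum, it was -0.72 with an unadjusted p = 0.00187 and adjusted p = 0.185 (edgeR). Without control replicate 2 it was -0.23 with an unadjusted p = 0.381 (edgeR). An alternative fit took out the dependence of each library on the length and GC content of transcripts, here called the length and GC correction, and gave -0.26 with an unadjusted p = 0.200 (edgeR).

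B2m, the light chain shared by all class I molecules, was by far the most abundant member. KO libraries held 5939, 7107 and 5541 CPM and control libraries 7676, 6696 and 7518 CPM. KO replicate 2 lay above control replicate 2, and the log2 fold change was -0.24 (SE 0.14) with an edgeR unadjusted p = 0.129, adjusted p = 0.588. After the length and GC correction the value was 0.026, so the direction of B2m rests on that choice.

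H2-K1 and H2-D1 are similar genes. Of 50-base windows in the GENCODE M21 transcript of H2-K1, 8.79% also occurred in another gene's transcript, most often H2-D1 (6.94%), and 0 of 1520 windows of 100 bases did. For H2-D1 the shares were 14.3% and 4.64%. B2m shared 0 of 811 windows of 50 bases. The treatment of reads that fit several genes is not stated, so the split between the heavy chain genes is uncertain to that extent.

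Among the other class I and class I-like heavy chain genes, 21 of 23 listed symbols had a row and 15 were tested. At an unadjusted p under 0.05, 1 was lower and 0 were higher (edgeR), where 5.59% of all tested genes were lower and 5.44% higher. A negative log2 fold change was seen in 12 of the 15, and the median was -0.29. After the length and GC correction 7 of the 15 were negative, the median was 0.033 and 1 was still lower. The lower one was H2-T23, which encodes the non-classical molecule Qa-1. It had 309, 294 and 327 CPM in KO and 578, 559 and 384 CPM in control libraries, a log2 fold change of -0.71 (SE 0.19) and an edgeR adjusted p = 0.288. DESeq2 called it lower (adjusted p = 0.00948). Of its 50-base windows 29.8% occurred in other genes. H2-M3, which presents formylated peptides, had 20.3, 26.8 and 37.1 CPM in KO and 37.5, 57.6 and 41.1 CPM in control libraries. The log2 fold changes of H2-Q5 and H2-Q1 were -0.63 (SE 0.30) and -0.75 (SE 0.43), and both overlapped between the groups.

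The loading genes did not move as one. Tapbp, which encodes tapasin, had 86.0, 94.4 and 94.1 CPM in KO and 134, 141 and 98.4 CPM in control libraries. All KO libraries lay below all control libraries, with control replicate 3 close to them. The log2 fold change was -0.45 (SE 0.19), with an edgeR unadjusted p = 0.0477, adjusted p = 0.448, and the unadjusted p stayed under 0.05 in 1 of the 6 fits with a library left out. An antisense gene, Gm19412, shares 19.0% of the 50-base windows of Tapbp and had at most 0.941 CPM in any library.

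Tap1, a subunit of the peptide transporter, was the member with the largest difference in the other direction. KO libraries held 86.9, 68.5 and 109 CPM, against 32.7, 86.3 and 51.9 CPM in control libraries. Control replicate 2 lay as high as the KO libraries, and the groups overlapped. The log2 fold change was 0.63 (SE 0.37), with an edgeR unadjusted p = 0.129, adjusted p = 0.588. It was 1.04 without control replicate 2 (unadjusted p = 0.0151, adjusted p = 0.298, edgeR) and 0.35 without control replicate 1.

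Tap2, the partner of Tap1 in the transporter, had 25.0, 28.3 and 23.04 CPM in KO and 19.0, 29.8 and 26.9 CPM in control libraries. These ranges overlapped fully, and the log2 fold change was 0.011 (SE 0.27). Its sign turned with RLE size factors (-0.0036) and with several other alternatives. Psmb9, which starts from the same stretch of DNA as Tap1 on the opposite strand, had a log2 fold change of the other sign (-0.31). In GENCODE M21 the Psmb9 gene runs 212 bases past the start of Tap1, and 12.5% of the 50-base windows of Psmb9 occur on the opposite strand in Tap1. With no strand stated for the counts, reads there cannot be assigned with certainty.

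Other genes of peptide trimming, loading and quality control in the endoplasmic reticulum showed no shared direction. Of 13 tested, 1 was lower and 1 higher at an unadjusted p under 0.05 in edgeR, where 5.59% and 5.44% of all tested genes were. The median log2 fold change was -0.046, with signs that depended on the alternative. Erap1, the aminopeptidase that trims peptides to class I length, had 25.1, 62.3 and 44.6 CPM in KO and 88.2, 88.4 and 68.3 CPM in control libraries (log2 fold change -0.89, SE 0.33, edgeR adjusted p = 0.398). Uggt1, the glucosyltransferase of glycoprotein folding control, had 74.2, 73.5 and 62.9 CPM in KO and 52.8, 48.5 and 40.1 CPM in control libraries. Its log2 fold change of 0.57 (SE 0.19) was 0.15 after the length and GC correction, with an unadjusted p = 0.584 (edgeR), so the call was lost, while Erap1 was still lower (-1.16). For the export receptor gene Bcap31 the log2 fold change was -0.35 (SE 0.20) and for the aminopeptidase gene Lnpep 0.72 (SE 0.41).

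All 3 inducible proteasome subunits were lower in every KO library than in every control library. Psmb8, which encodes the chymotrypsin-like subunit LMP7, had 479, 454 and 427 CPM in KO and 732, 626 and 606 CPM in control libraries. The KO library nearest to control still lay below all control libraries by more than the KO libraries differed among themselves. KO libraries averaged 453 ± 25.6 CPM and control libraries 655 ± 67.6 CPM (SD, n = 3 each), and the log2 fold change was -0.53 (SE 0.15), with an edgeR unadjusted p = 0.00821, adjusted p = 0.297. With any 1 library left out the unadjusted p was at most 0.0383.

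Psmb10, which encodes the subunit MECL-1, had 169, 244 and 167 CPM in KO and 279, 281 and 290 CPM in control libraries. The control libraries lay close together and KO replicate 2 stood apart from the other KO libraries, nearer to control. The log2 fold change was -0.55 (SE 0.19), with an edgeR unadjusted p = 0.0230, adjusted p = 0.378, and the unadjusted p was under 0.05 in 4 of the 6 fits with a library left out.

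Psmb9, which encodes the subunit LMP2, had 254, 286 and 240 CPM in KO and 333, 345 and 290 CPM in control libraries. KO replicate 2 and control replicate 3 nearly met. The log2 fold change was -0.31 (SE 0.15), with an edgeR unadjusted p = 0.0808, adjusted p = 0.514, and -0.032 after the length and GC correction.

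Each inducible subunit takes the place of 1 constitutive subunit, and the ratio of their counts within a library does not depend on how the library was scaled. The ratios were not corrected for transcript length and GC content. After that correction the log2 fold changes were -0.27 for Psmb8 and -0.17 for Psmb5, and -0.032 for Psmb9 and -0.12 for Psmb6. For Psmb10 and Psmb7 they were -0.34 and 0.33. The log2 ratio of Psmb10 to Psmb7 was -0.95, -0.35 and -0.85 in KO and -0.23, 0.071 and -0.26 in control libraries. All KO libraries lay below all control libraries, with a difference in mean of -0.58. An exact two-sided permutation test gave p = 0.1, the smallest that 3 against 3 libraries allow, and 0.3 when adjusted over the 3 ratios.

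The log2 ratio of Psmb8 to Psmb5 was 0.41, 0.45 and 0.64 in KO and 0.84, 0.91 and 0.50 in control libraries. Control replicate 3 fell within the KO range, and the difference of -0.25 had an exact permutation p = 0.2 (0.3 adjusted). For Psmb9 to Psmb6 the log2 ratio was -0.82, -0.80 and -0.70 in KO and -0.65, -0.27 and -1.15 in control libraries. Here control replicate 3 was the lowest library of all, the difference was -0.085 with an exact permutation p = 0.7 (0.7 adjusted), and it was 0.12 without control replicate 2.

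**Figure D2:**
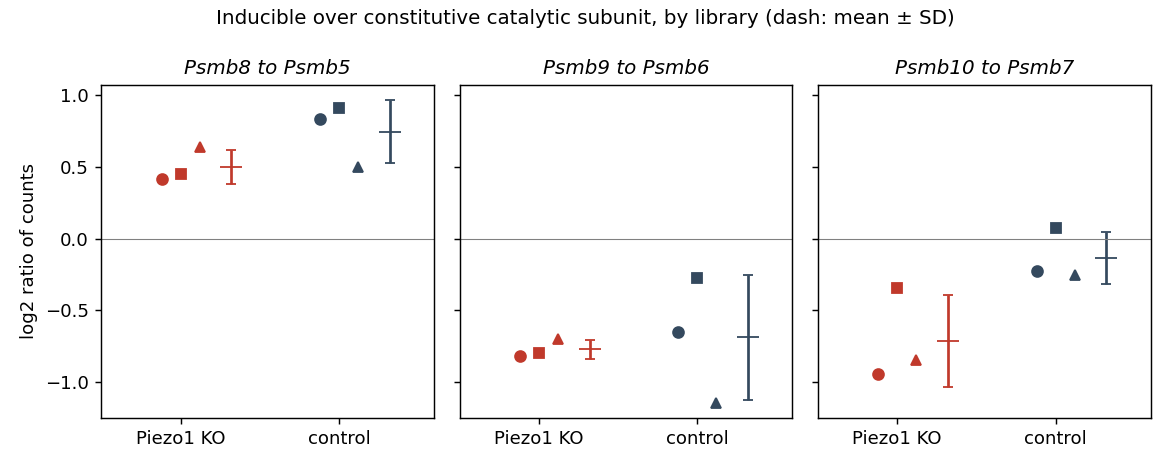
Log2 ratio of counts (y axis) of each inducible proteasome subunit to the constitutive subunit it replaces, by library, with Piezo1 KO left of control and a dash with bars for mean ± SD. The groups are separate for Psmb10 to Psmb7 and overlap for the other 2 ratios.

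The constitutive subunits themselves overlapped between the groups. Psmb5 had 359, 331 and 275 CPM in KO and 410, 333 and 429 CPM in control libraries, Psmb6 449, 497 and 390 CPM in KO and 523, 417 and 642 CPM in control, and Psmb7 325, 311 and 299 CPM in KO and 326, 268 and 347 CPM in control. Their log2 fold changes were -0.28 (SE 0.18), -0.24 (SE 0.20) and -0.0081 (SE 0.16). Of the 50-base windows of Psmb5, 57.1% occur in other genes, mostly Gm3375, and 28.1% of those of Psmb7 occur in Nek6. Across the 6 libraries Gm3375 had between 21.7 and 36.5 CPM and Nek6 between 2.85 and 12.9 CPM. The treatment of reads that fit several genes is not stated, so the size of its effect on the ratios with Psmb5 and Psmb7 is not known.

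The 11 other subunits of the 20S core, which standard proteasomes and immunoproteasomes share, also had negative log2 fold changes in all cases, with a median of -0.41. At an unadjusted p under 0.05, 6 were lower and 0 higher in edgeR, where 5.59% and 5.44% of all tested genes were. Psma1 had 490, 557 and 456 CPM in KO and 741, 582 and 760 CPM in control libraries, and Psmb4 456, 432 and 429 CPM in KO and 593, 520 and 620 CPM in control. For Psmb2 the log2 fold change was -0.47 (SE 0.18) and for Psmb3 it was -0.52 (SE 0.20). After the length and GC correction the median was -0.10 and 1 of the 11 was lower.

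Proteasome activator and assembly genes showed a like pattern. At an unadjusted p under 0.05 in edgeR, 4 of 10 were lower and 0 higher, where 5.59% and 5.44% of all tested genes were. Their median log2 fold change of -0.34 was -0.11 after the length and GC correction, with 1 of 10 lower. Psme1 and Psme2 encode the interferon-inducible PA28 cap, which widens the outlet of the proteasome core. Psme1 had 428, 445 and 416 CPM in KO and 585, 528 and 532 CPM in control libraries (log2 fold change -0.35, SE 0.14, edgeR adjusted p = 0.407). Psme2 had 279, 283 and 270 CPM in KO and 417, 311 and 488 CPM in control libraries (-0.55, SE 0.19, adjusted p = 0.380). The groups did not overlap for either gene. Psme2b, whose log2 fold change was -0.58 (SE 0.20), shares 59.3% of the 50-base windows of Psme2, so their counts may be split reads. The assembly chaperone gene Psmg1 had -0.57 (SE 0.20).

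Nlrc5, the transactivator of class I genes, did not differ by more than the spread between libraries. KO libraries held 38.8, 46.2 and 45.6 CPM and control libraries 38.2, 51.9 and 35.2 CPM, and the log2 fold change was 0.061 (SE 0.23, edgeR adjusted p = 0.964). Control libraries spanned the whole KO range.

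Among 24 genes of the transcriptional control of class I, 3 were lower (Irf1, Irf7 and Nfyc) and 2 higher (Nfya and Nfkb1) at an unadjusted p under 0.05 in edgeR. By that measure 5.59% of all tested genes were lower and 5.44% higher. The median log2 fold change of the 24 genes was 0.24. After the length and GC correction 0 were lower, with unadjusted p-values of 0.0894 for Irf1, 0.0501 for Irf7 and 0.0998 for Nfyc (edgeR), and Nfya and Nfkb1 were still higher. Irf1, an interferon-induced factor that binds class I promoters, had 33.5, 53.8 and 40.5 CPM in KO and 62.1, 110 and 56.3 CPM in control libraries. Every KO library lay below every control library (log2 fold change -0.84, SE 0.32, edgeR adjusted p = 0.407). Irf7, an interferon-induced factor of the type I response, had 15.6, 12.8 and 6.38 CPM in KO and 31.99, 20.8 and 22.3 CPM in control libraries (-1.11, SE 0.41, edgeR adjusted p = 0.397).

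The NF-Y subunit genes, whose product binds the Y box, went apart. Nfya had 16.1, 17.7 and 19.1 CPM in KO and 8.09, 7.56 and 11.7 CPM in control libraries, and Nfyc 46.0, 38.4 and 49.4 CPM in KO and 76.6, 62.3 and 73.3 CPM in control. For Nfkb1, which encodes an NF-kB subunit, the log2 fold change was 0.66 (SE 0.24, edgeR adjusted p = 0.392).

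Of 11 tested interferon receptor and signalling genes, 0 were lower and 1 was higher at an unadjusted p under 0.05 in edgeR, where 5.59% and 5.44% of all tested genes were. The higher one was Jak2, the kinase of the interferon-gamma, thrombopoietin and erythropoietin receptors. KO libraries held 78.8, 93.8 and 99.8 CPM and control libraries 28.4, 53.2 and 43.4 CPM, with no overlap (log2 fold change 1.12, SE 0.26, edgeR adjusted p = 0.255; DESeq2 adjusted p = 0.00657). The receptor genes Ifnar2 and Ifngr1 had -0.32 (SE 0.17) and -0.33 (SE 0.25), and Usp18, which dampens interferon signalling, -0.55 (SE 0.44). Ifng and Ifnb1 had 0 counts in all 6 libraries.

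**Figure D3:**
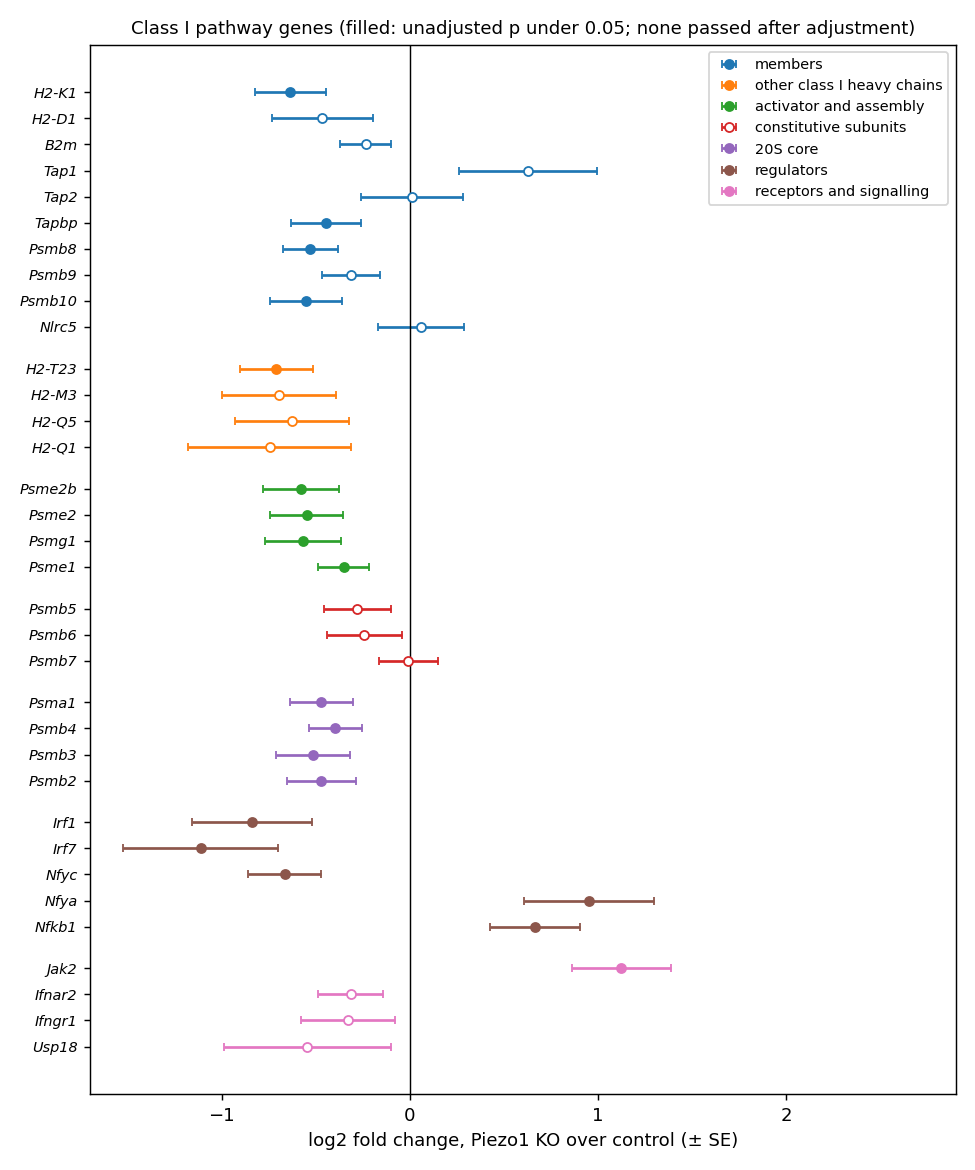
Log2 fold change of Piezo1 KO over control (x axis) with its SE for the 10 members and for named genes of the related lists. Filled points had an unadjusted p under 0.05 in edgeR, and no gene passed after adjustment. Tap1, Nfya, Nfkb1 and Jak2 lie to the right of 0, and the genes with filled points in the proteasome groups lie to the left.

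In the MHC class II pathway, which loads peptides from outside the cell, 6 of 11 tested genes were lower and 0 higher at an unadjusted p under 0.05 in edgeR. Of all tested genes 5.59% were lower and 5.44% higher. The class II median log2 fold change was -0.95, and 2 of the 11 were lower after the length and GC correction (median -0.72). H2-Aa had 26.9, 54.2 and 34.9 CPM in KO and 120, 95.4 and 90.3 CPM in control libraries, H2-Ab1 55.8, 56.6 and 53.8 CPM in KO and 130, 125 and 50.4 CPM in control, and Cd74 10.06, 49.6 and 22.1 CPM in KO and 70.3, 64.3 and 38.4 CPM in control. The groups overlapped for H2-Ab1 and Cd74 but not for H2-Aa. They also did not overlap for H2-DMb2 (log2 fold change -2.18, SE 0.64), H2-Eb1 (-1.41, SE 0.51) and Ctss (-1.48, SE 0.58). H2-DMb2 was low, with means of 1.96 CPM in KO and 8.91 CPM in control.

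Per kilobase of transcript, the levels of the members spanned more than 3 orders of magnitude. B2m led with means of 7204 CPM per kb in KO and 8484 CPM per kb in control libraries. H2-K1 followed with 955 CPM per kb in KO and 1485 CPM per kb in control, and H2-D1 with 502 CPM per kb in KO and 693 CPM per kb in control. Then came Psmb8 (278 in KO, 402 in control), Psmb9 (192 in KO, 239 in control) and Psmb10 (147 in KO, 216 in control). Tapbp had 31.6 CPM per kb in KO and 43.0 in control and Tap1 29.8 in KO and 19.3 in control. Tap2 (7.39 in KO, 7.33 in control) and Nlrc5 (5.75 in KO, 5.51 in control) were lowest. Over the 6 libraries, the ranges of H2-D1 and Psmb8, of Psmb9 and Psmb10, of Tapbp and Tap1 and of Tap2 and Nlrc5 overlapped, although within each library H2-D1 lay above Psmb8 and Tap2 above Nlrc5 in 6 of 6 libraries. Psmb9 lay above Psmb10, and Tapbp above Tap1, in 5 of 6 libraries. The other neighbours did not overlap.

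The members shared a profile over the 6 libraries in part. Their mean standardised log2 CPM was -0.60, -0.065 and -0.58 in KO and 0.34, 0.98 and -0.080 in control libraries, so control replicate 3 lay within the KO range. Against this profile the correlation was 0.95 for Psmb9 and 0.92 for Tapbp, and -0.32 for Tap1, over 6 libraries that include each gene itself. Of 9545 other genes with at least 5 CPM on average, the most alike were Prepl, Irf1, Nefh, Oasl2 and Dnajc3, with Pearson r between 0.97 and 0.98. Oasl2, an interferon-induced gene, had 40.1, 47.5 and 35.5 CPM in KO and 78.1, 137 and 46.3 CPM in control libraries. With so many genes ranked over 6 libraries, these values only describe likeness.

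The library left out decided part of the count. Without KO replicate 1 or without KO replicate 3, 2 members were lower at an unadjusted p under 0.05 (edgeR), H2-K1 and Psmb8. Without control replicate 3 there were 6, among them H2-D1 and Psmb9. The count over all tested genes moved as well. By the same measure 896 genes were lower with 6 libraries and 1299 without control replicate 3. Without KO replicate 1 there were 858 and without KO replicate 3 there were 584. After the length and GC correction, H2-K1 and Tapbp were lower (2 of 10, where 4.50% of all tested genes were), with log2 fold changes of -0.38 and -0.55. Psmb8 had -0.27 and Psmb10 -0.34 in that fit, and Tap1 0.53.

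**Figure D4:**
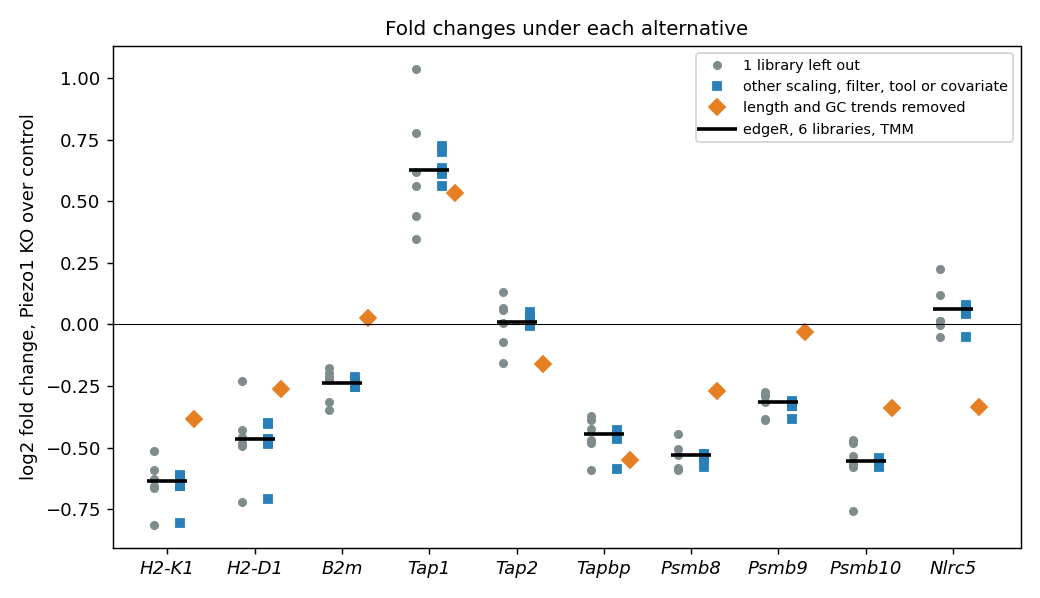
Log2 fold change of Piezo1 KO over control (y axis) for each member in edgeR with 6 libraries, with 1 library left out, with other scalings, filters, tools or covariates, and with the length and GC correction. H2-K1, H2-D1, Tapbp, Psmb8, Psmb9 and Psmb10 stay below 0 and Tap1 above 0 in all of these, while B2m, Tap2 and Nlrc5 change sign in at least 1.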

How the data were processed

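Sorted LT-HSCs went through TRIZOL extraction and a TruSeq RNA library kit, per the labels' protocols. The authors deposited raw gene counts, with 47561 rows for each library. Tools named in the submitters' processing notes, without settings, are featureCounts 1.6.4, HISAT2 2.1, cutadapt 1.16.5, bcl2fastq 2.19 and DESeq2 2.11.40.6, and the build is mm10. No source used here gives the strand.

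Counts were fitted with edgeR 4.0.16 under R 4.3.3, with filterByExpr, TMM scaling, the quasi-likelihood test between KO and control over 6 libraries, and Benjamini-Hochberg adjustment over 16022 genes. The SE is the absolute log2 fold change divided by the square root of F. Alternatives used DESeq2 1.42.0, limma 3.58.1 (voom), sva 3.50.0, other scalings and filters, a replicate block, each library left out, and a lowess correction per library for length and GC content, for which 89.5% of rows had values. The steps were tested on simulated data. At an edgeR adjusted p under 0.05 they recovered 3 of 50 genes changed 2-fold and 33 of 50 changed 4-fold. Member log2 fold changes lay between -0.64 and 0.63, less than 2-fold, so a missing adjusted call says little about changes of that size. Lengths are of the best-ranked APPRIS transcript in GENCODE M21. No libraries agreed within sampling noise (chi-square per gene at least 134). Symbols, not coordinates, joined the files to RefSeq and GENCODE.

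The members, lists and named genes were chosen with earlier results of these data known. Named genes are all members, the 4 smallest p per list, and fixed additions (constitutive subunits, Irf1, Psme1, Psme2, H2-Aa, H2-Ab1, Cd74). The result of 1 further gene is not reported here.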

Additional observations from a re-analysis of the deposited data

How the results depend on the processing

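Counting error is small for members, since the lowest count was 1153. With 3 libraries a group, the spread between libraries limits precision. Genes past an adjusted p of 0.05 were 0 in each direction in edgeR, against 192 higher and 329 lower with DESeq2 and 1 lower when 5 CPM were required in 3 libraries. With 1 library left out they ranged from 0 to 1 higher and 0 to 0 lower. At an unadjusted p under 0.05, edgeR gave 871 higher and 896 lower genes, 562 to 1339 and 573 to 1299 with 1 library left out, and 1364 higher with 1 surrogate variable. Members lower by that measure numbered 4, 2 to 6 with 1 library left out (0 to 1 higher), and 2 after the length and GC correction.

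That correction, the cause of whose effect was not tested, gave log2 fold changes of 0.026 for B2m, -0.16 for Tap2, -0.34 for Nlrc5, 0.0068 for Bcap31 and 0.33 for Psmb7, and list medians of -0.11 for activator and assembly genes and -0.10 for 20S core genes. Tap2 was -0.0036 with RLE size factors, -0.0036 with DESeq2 and -0.0052 with no filter on low counts. Nlrc5 was -0.050 with 1 surrogate variable, and Psmb7 0.0030 with limma-voom and 0.071 with 1 surrogate variable. The median of the peptide trimming and loading list was 0.083 with limma-voom, 0.078 with the replicate block and 0.21 with 1 surrogate variable.

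With 1 library left out the log2 fold change ranged from -0.16 to 0.13 for Tap2, -0.050 to 0.22 for Nlrc5 and -0.13 to 0.071 for Psmb7. The list medians ranged from -0.10 to 0.21 for peptide trimming and loading, -0.30 to 0.12 for interferon receptors and signalling and -1.37 to -0.71 for class II, and the difference in the log2 ratio of Psmb9 to Psmb6 from -0.31 to 0.12.

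Whether the replicate numbers pair the libraries was not settled. Deviations of same-numbered libraries from their group means correlated at only 0.038, 0.016 and 0.033, although each library correlated best with its own number. With the replicate block, 3 members were lower at an unadjusted p under 0.05, and 835 genes were higher and 762 lower.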
